A study of Mus musculus with 24 samples.

Results

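The response of wild-type mouse embryonic stem cells to mTOR inhibition was described from ATAC-seq, which reads open chromatin by letting the transposase Tn5 insert sequencing adapters into accessible DNA. The comparison rests on 8 of the 24 libraries of the study: 4 WT control libraries (Ctrl) and 4 WT libraries from cells that had INK128, which blocks mTOR, in their medium at 200 nM for 12 hours (Paused). All 8 came from E14 cells, a mouse embryonic stem cell line, grown on gelatin in medium with fetal bovine serum and leukemia inhibitory factor, with 50000 live cells per library. The other 16 libraries are 2 Smad2 knockout lines, Smad2_KO1 and Smad2_KO2, with 4 Ctrl and 4 Paused libraries each. The deleted part of Smad2 is not given in the sources used here, and the knockouts serve only for comparison with the WT response. Nothing says that the 4 replicates of a group were separate cultures, so p-values measure the spread between these libraries, which may be technical.

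The members were chosen by label (WT in both treatments) and by position. The authors deposited 1 table for Ctrl and another for Paused, and the tables were normalized separately over their own intervals. An interval of one table was paired with an interval of the other when the stretch they share made up 50% or more of both, with no interval in more than 1 pair. This gave 215826 matched intervals, 72.0% of the 299780 in the Ctrl table and 79.3% of the 272268 in the Paused table. Only these shared intervals are seen, so a site that was found in 1 table alone is not described. Matched intervals had the same bounds in 7926 cases, and the median shift between the partners was 11 bases. Treatment, table, separate normalization and interval placement go together in this design and cannot be told apart.

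mTOR is a kinase that senses nutrients and growth factors, and its complex mTORC1 promotes ribosome production, protein synthesis and lipid synthesis and restrains autophagy. Inhibitors of its catalytic site hold embryonic stem cells and blastocysts in a reversible, slowly growing state that resembles diapause and is called pausing. Among the genes that follow mTORC1 most directly are those read by RNA polymerase III, which makes transfer RNAs (tRNAs) from promoters lying inside the genes. The polymerase's repressor Maf1 is a substrate of mTORC1. The lysosomal genes form another branch, since the factors Tfeb and Tfe3 are kept out of the nucleus while mTORC1 is active.

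Reads in the deposited intervals ran from 11456986 (Paused replicate 4) to 15681690 (Ctrl replicate 2) per WT library. Each library was centred on its median log2 ratio over the matched intervals, which moved no library by more than 0.102 on the log2 scale. Values below are the authors' normalised read counts after this centring, called centred values. Differences are log2 fold changes of Paused over Ctrl on the log2(value + 1) scale with their standard error (SE). They were tested with limma over all 198508 matched intervals that reached a value of 10 in at least 4 of the 8 libraries. A change was called at a Benjamini-Hochberg adjusted p under 0.05. The first principal component of the 8 libraries held 36% of the variance and set all Ctrl apart from all Paused libraries. The second held 18.8% and set replicates 1 and 2 of both treatments apart from replicates 3 and 4.

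After 12 hours of INK128, 29337 intervals (14.8% of those tested) had changed. Of these, 16365 (8.24% of those tested) had risen and 12972 (6.53%) had fallen, and 5997 (3.02%) had changed at least 2-fold, 2827 upward and 3170 downward. In 25041 of the called intervals all 4 Paused values lay on the same side of all 4 Ctrl values. Over all tested intervals they lay above in 10.2% and below in 8.75%. With the replicate number as a block, since same-numbered libraries deviated together, 53252 intervals were called, 30117 higher and 23135 lower. The rises made up 55.8% of the calls after centring and 73.7% with the authors' own scaling alone.

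Direction followed how open a site was and where it lay. In the lowest decile of intervals by mean level, 1.09% were called higher and 2.78% lower. In the highest decile, 19.7% were higher and 3.24% lower, and the median log2 change climbed from -0.13 to 0.18 between these deciles. Of the 10006 intervals within 500 bases of a RefSeq transcript start, 15.4% rose and 1.02% fell, with a median change of 0.20. Intervals more than 50 kb from any protein-coding gene went the other way, with 6.09% of 33655 higher and 9.92% lower and a median of -0.10. Level and position are linked, since gene starts had a median level of 245.5 and far intergenic intervals of 26.8. Within the highest decile by level, gene starts were called higher in 15.1% and lower in 0.228%. Intervals inside gene bodies there were higher in 23.3% and lower in 3.8%, and the median changes were 0.20 and 0.18. In decile 9 the order of the higher shares was the reverse, with 23% at gene starts and 18.2% inside gene bodies. A loess scaling that removes the trend along the level left 8.74% of gene starts higher and 4.31% lower, with a median of 0.04. The far intergenic calls stayed at 5.98% higher and 10.1% lower under that scaling. After centring, a change of 0.20 was thus the middle value for gene starts.

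**Figure D1:**
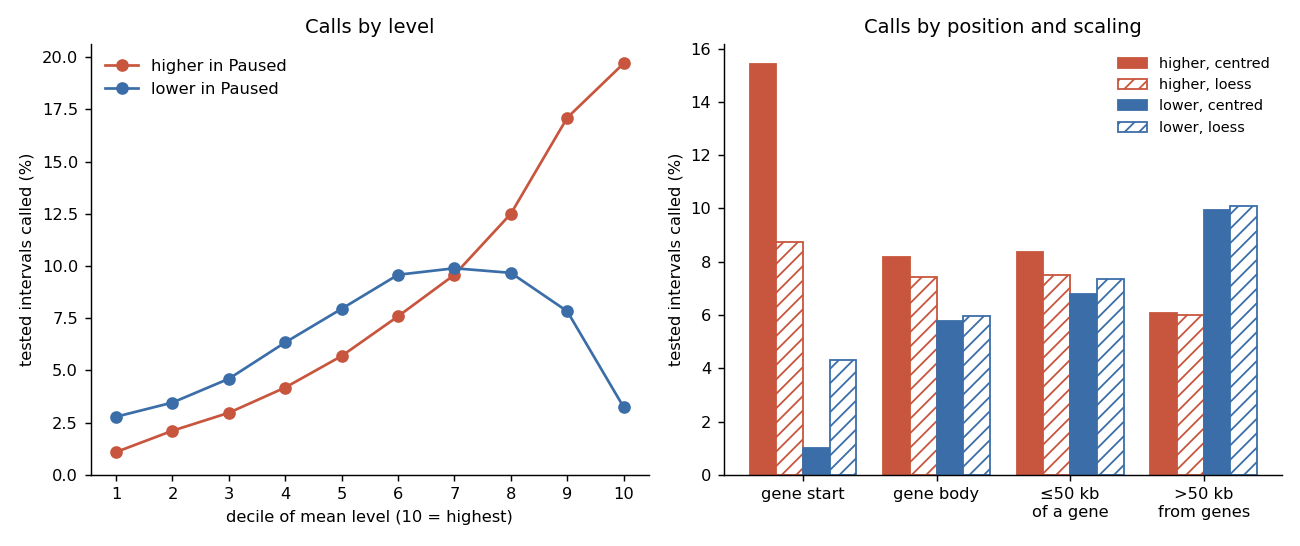
Share of tested intervals called higher or lower in Paused WT cells, by decile of mean level (left) and by position (right; filled bars after median centring, hatched bars after loess scaling along the level). Higher calls reach 19.7% in the top decile. Under loess the share of gene starts called higher shrinks from 15.4% to 8.74% and the share called lower grows from 1.02% to 4.31%. The far intergenic shares stay near 6% higher and 10% lower.

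The strongest group pattern was a loss of accessibility at tRNA genes. Of the 79 tested intervals within 100 bases of a RefSeq tRNA gene, 41 fell (51.9%, against 6.53% of all tested intervals), 2 rose and 36 were not called, with a median log2 change of -0.39. These intervals covered 80 of the 430 tRNA genes in the RefSeq table. tRNA genes were singled out after the values of 12 kinds of RefSeq gene had been seen, so the pattern is a description. In the other 11 kinds between 0 and 11.5% of intervals were called lower. The summed share of all matched signal held by the tRNA intervals was 0.146%, 0.139%, 0.135% and 0.143% in the Ctrl libraries and 0.110%, 0.103%, 0.0983% and 0.108% in the Paused libraries. All 4 Ctrl libraries were above all 4 Paused libraries. RefSeq names a nuclear tRNA gene by the 1-letter code of its amino acid, its anticodon in small letters and a copy number, so n-TSgct8 is a serine tRNA gene.

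The deepest losses were in a cluster of tRNA genes on chromosome 13. At n-TLtaa2, a leucine tRNA gene (chr13:21847920-21848120), the Ctrl libraries had centred values of 75.8, 84.4, 86.2 and 79.1 and the Paused libraries 18.3, 14.4, 15.0 and 19.8. The log2 change was -2.21 (SE 0.171, adjusted p = 5.78e-07). At n-TSgct8 (chr13:21994035-21994235) the Ctrl values were 165, 173, 142 and 186 and the Paused values 29.6, 48.3, 34.1 and 35.7, a log2 change of -2.16. No Paused library came near a Ctrl library at either gene. The tyrosine tRNA gene n-TYgta6 changed by -1.996, the isoleucine gene n-TIaat15 by -1.76 and the alanine gene n-TAagc11 by -1.66. At n-TIaat15 (chr13:23270479-23270679) the Ctrl values were 362, 362, 273 and 322 against 106, 97.6, 92.4 and 88.6 in Paused. The phenylalanine tRNA gene n-TFgaa6 lies on chromosome 19 (chr19:12002283-12002483) and fell from 301, 268, 228 and 252 to 83.7, 86.3, 90.4 and 78.0, a log2 change of -1.62. The glycine gene n-TGacc1 on chromosome 11 changed by -1.05 and the arginine gene n-TRtcg2, whose interval has identical bounds in both tables, by -0.87 (SE 0.115).

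**Figure D2:**
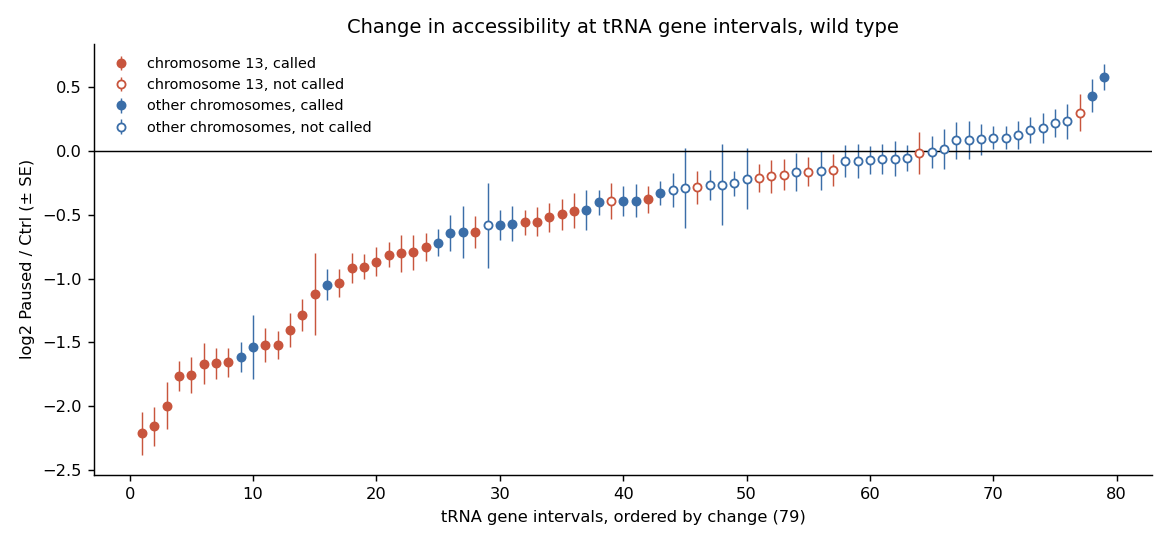
Log2 change (Paused over Ctrl, ± SE from limma) of the 79 tested intervals at tRNA genes, ordered by size; red marks chromosome 13, blue the other chromosomes, filled points are called. Called intervals run from -2.21 to 0.58, and 41 of the 43 called points lie below 0.

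Not every tRNA gene took part. At the glutamate gene n-TEttc7 the Ctrl values were 358, 367, 333 and 368 and the Paused values 408, 328, 304 and 340, so the groups overlapped, with a log2 change of -0.06. At the asparagine gene n-TNgtt14 the values were 633, 490, 409 and 593 in Ctrl and 679, 514, 424 and 646 in Paused, again overlapping. The 2 intervals that rose were n-TVaac1, a valine gene inside Ubr4 on chromosome 4, and n-TTcgt3, a threonine gene on chromosome 11. At n-TVaac1 the values went from 206, 234, 190 and 193 to 311, 311, 328 and 280, with every Paused library above every Ctrl library and a log2 change of 0.58. At n-TTcgt3 the change was 0.43, and its call was lost when any library other than Ctrl replicate 1 or Paused replicate 3 was left out (adjusted p from 0.0517 to 0.105) and under loess scaling (0.0772) or quantile normalization (0.091). By amino acid, all 6 alanine, 4 lysine and 3 glutamine intervals fell, as did 6 of 7 serine intervals. None of 5 glutamate and 2 asparagine intervals was called lower. All 6 alanine intervals lie in the chromosome 13 cluster described below and no glutamate or asparagine interval does, so amino acid and position go together here. An interval that covers both n-TLaag6 and the valine gene n-TVaac7 fell (-0.72), while none of the 5 intervals at valine genes alone did. The calls at n-TKctt6, n-TKctt24 and n-TQttg1 were lost in 4, 6 and 6 of the 8 fits that leave out 1 library. The adjusted p there ran up to 0.083, 0.17 and 0.131. At n-TKctt6 the values were 10.7, 13.3, 15.9 and 11.5 in Ctrl and 6.08, 4.06, 3.96 and 7.93 in Paused. Only its Ctrl libraries reached the minimum value of the filter, so this lysine interval was tested on the strength of Ctrl alone.

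**Figure D3:**
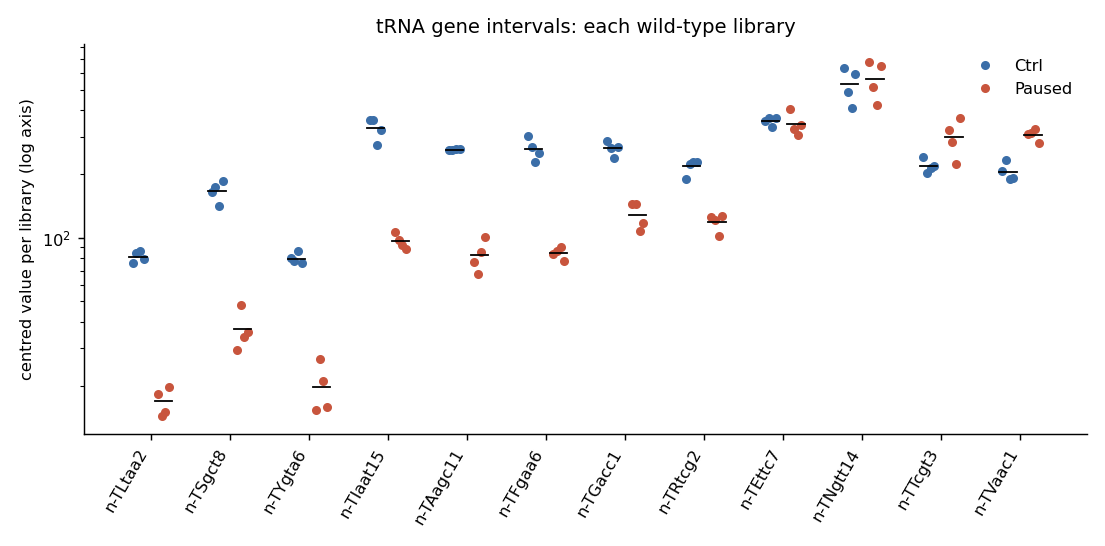
Centred value in each of the 8 WT libraries (log axis) at the 12 tRNA gene intervals named in the text; points are libraries, black lines group means. Ctrl and Paused do not overlap at the first 8, overlap at n-TEttc7 and n-TNgtt14, and Paused lies higher at n-TVaac1.

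Falls at tRNA genes were most frequent in 1 cluster. In that cluster on chromosome 13 (21161284 to 23526684), which also holds many histone genes, 27 of 36 tRNA intervals fell with a median of -0.80. The other 171 tested intervals of the same stretch had 25 called lower (14.6%) and a median of -0.12, and none of the 4 intervals chosen for histone genes there was lower. On the other chromosomes 13 of 42 tRNA intervals fell (31.0%), with a median of -0.16. Of the 9 tRNA intervals that also lie at the start of a protein-coding gene, 1 fell, against 40 of the other 70. Intervals within 50 kb of the tRNA genes fell in 9.41% of 776 cases. Levels of tRNA intervals were high, with a median of 168.3, and among intervals with a mean of at least 50 the tRNA share called lower was 51.4% against 7.21% of all.

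The fall at tRNA genes was also seen in the knockout lines, whose libraries are other samples in the same 2 tables. In Smad2_KO1 46 and in Smad2_KO2 49 of the 79 intervals were called lower, with medians of -0.45 and -0.51, against 9.96% and 8.78% of all tested intervals. Knockout calls here and below come from a fit over all 24 libraries. Under that fit WT had 43 of the 79 lower, and 20449 of all tested intervals lower. The knockout counts are thus not to be set against the 41 of the WT fit over 8 libraries. The change in WT minus that in the knockouts passed the test at none of the 79. Of other genes read by RNA polymerase III, 6 intervals were looked at and none was called in WT. Those at Rmrp (RNA of RNase MRP), Rpph1 (RNA of RNase P), its relative Rprl3, Rn7s1 and Rn7s2 (7SL RNA of the signal recognition particle) and Vaultrc5 (vault RNA) had log2 changes between -0.18 and 0.11. In Smad2_KO1 Vaultrc5 was called lower (-0.33). The intervals at Rmrp and Rpph1 also lie within 500 bases of a protein-coding gene start, and that at Rn7s1 overlaps a protein-coding gene body. These are thus no clean contrast with the tRNA intervals. tRNA genes occur in near-identical copies, and how reads matching several copies were handled is not given in the sources used here, so a value may be shared between copies. Among the 48 tRNA intervals whose partners overlap by at least 90%, 20 fell and 2 rose, with a median of -0.21. Of all intervals that overlap by 90 to 100% without identical bounds, 6.47% fell.

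The largest single changes lay away from gene starts. They were the 8 risen and 8 fallen intervals with the greatest change among called intervals with a mean of at least 50 whose groups did not overlap, taking 1 per nearest gene. The top riser lies inside Myo18b, a gene for an unconventional myosin (chr5:112771425-112771625). Its Ctrl values were 12.8, 10.7, 15.9 and 11.5 and its Paused values 155, 140, 116 and 103, a log2 change of 3.23 (SE 0.18, adjusted p = 1.65e-08). An interval inside Agpat3, which encodes an acyltransferase of phospholipid synthesis, has identical bounds in both tables (chr10:78326424-78326624). It went from 39.5, 38.2, 45.4 and 28.7 to 262, 238, 238 and 231, a change of 2.66. Both went from low values in every Ctrl library to high values in every Paused library. The others lie in Scara5, a ferritin receptor gene (2.64), in Mical3, an actin-modifying oxidase gene (2.52), in Cerk, the ceramide kinase gene (2.34), and in Rpl36 (2.29). Further ones lie 143623 bases from Mylip, a ubiquitin ligase gene (2.56), and 29902 bases from Prex1, a gene of a Rac activator (2.28).

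Among intervals chosen by that rule, the largest loss lay 52643 bases from Aebp2, which encodes a cofactor of the Polycomb complex PRC2 (chr6:140731015-140731215). Its values fell from 126, 112, 111 and 117 to 19.4, 31.8, 21.0 and 22.5, a log2 change of -2.27 (SE 0.164). The interval at n-TSgct8, described above, was the next under the rule, which leaves out n-TLtaa2 for its mean under 50. An interval inside Lrrtm4, a synaptic adhesion gene, changed by -2.03, and one near Ctnnd2, the delta-catenin gene, by -2.02. The rest lay near Smpx (-1.82) and Ywhah (-1.79) and inside Eda2r (-1.81) and Pde4d, a cAMP phosphodiesterase gene (-1.80). All 16 were called with the same sign in Smad2_KO1 and Smad2_KO2. Of all tested intervals 10.6% and 9.36% were called higher in these lines and 9.96% and 8.78% lower. All 16 also kept their call and sign under each scaling, filter and left-out library in which they could be tested. The nearest gene is a name for the place and was not shown to be its target.

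**Figure D4:**
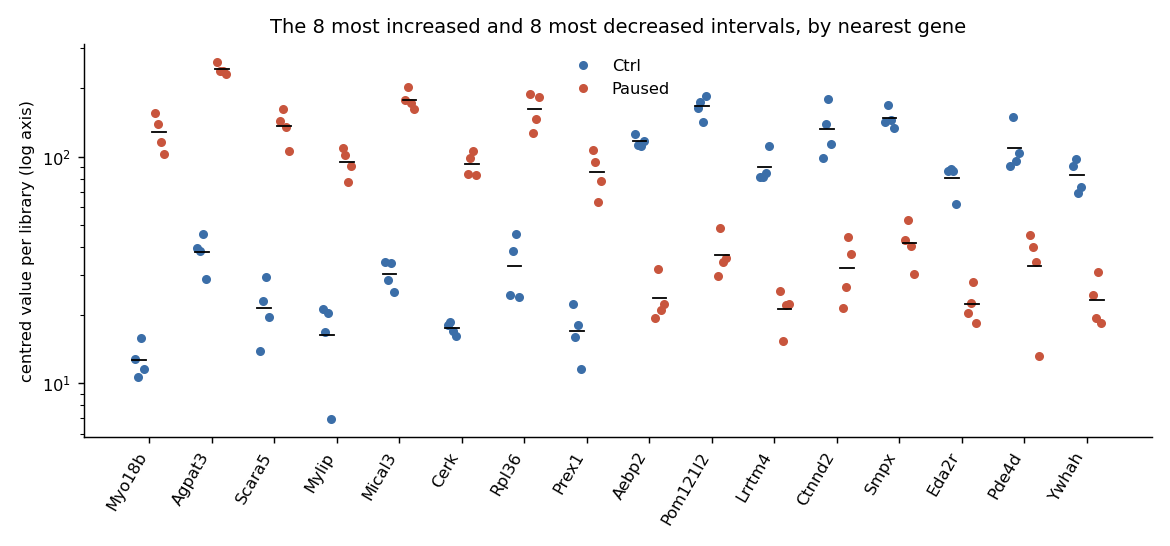
Centred value per WT library (log axis) at the 8 most increased (left) and 8 most decreased (right) intervals, named by nearest gene; black lines are group means. No Paused library overlaps a Ctrl library at any of the 16, and the highest Paused values are those at Agpat3 (231 to 262).

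For gene-by-gene results each protein-coding gene was given 1 interval. It was the strongest within 500 bases of a RefSeq start where the start was known, and otherwise the strongest in the gene body or within 1000 bases of it. Of 21887 genes 13735 had such an interval, and 2334 (17.0%) of these were called, 2156 higher (15.7%) and 178 lower (1.30%), around a median change of 0.20. The count moved with the libraries and the scaling. It was 1139 without Paused replicate 1, 1285 without Ctrl replicate 2, 1310 without Ctrl replicate 3, 1364 without Paused replicate 4 and 3614 without Paused replicate 3. With the replicate block it was 7192, and under loess scaling 1195 genes were higher and 655 lower. The lists below are read against 15.7% higher, 1.30% lower and the median of 0.20. Their counts with the block are read against 49.6% of all genes higher and 2.77% lower, and those under loess scaling against 8.7% and 4.77%.

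By the 1 interval per gene, genes that bring in, burn and store fatty acids had 9 of 25 members higher and none lower, with a median of 0.27. Cpt1b and Cpt2 encode the carnitine palmitoyltransferases that pass fatty acids into mitochondria. At Cpt1b the Ctrl values were 62.0, 58.6, 45.4 and 60.8 and the Paused values 109, 83.2, 95.4 and 138, with no overlap, and a log2 change of 0.88 (SE 0.16, adjusted p = 0.00112). At the start of Cpt2 they went from 173, 177, 145 and 196 to 310, 262, 242 and 299, a change of 0.68 (SE 0.118). Ppara, a nuclear receptor that switches on fatty acid oxidation, changed by 0.63, but Paused replicate 3 (219) lay below Ctrl replicate 4 (243). Its call was lost without Ctrl replicate 3 (adjusted p = 0.0508) or Paused replicate 1 (0.0507). Hadha and Hadhb, subunits of the same oxidation enzyme, share 1 interval and count as 2 of the 9. Under loess scaling 6 of the 25 were higher, with the block 17, and without Ctrl replicate 3 or Paused replicate 1 there were 5. Key genes of this list without an interval under the gene rule were Pparg, Ppargc1a and Cpt1a. In or within 1000 bases of these genes, none of 3 intervals at Pparg and 17 at Ppargc1a was called, and 1 of 10 at Cpt1a was higher. Cd36 and Fabp3 also had none under that rule. Both of the 2 intervals at Cd36 were lower (median -0.62), and the only interval at Fabp3 was higher (0.99). Over all 185 intervals in or within 1000 bases of the list's genes, 29 were higher and 5 lower (15.7% and 2.7%). For protein-coding genes these shares were 8.86% and 5.34%.

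Lysosome and autophagy genes had 6 of 31 higher and 1 lower, with a median of 0.26. Ctsa, the lysosomal carboxypeptidase cathepsin A, had Ctrl values of 130, 115, 107 and 116 and Paused values of 220, 174, 184 and 208, a log2 change of 0.74 (SE 0.116). Hexa, a lysosomal hydrolase gene, rose at its start by 0.62 on the log2 scale (adjusted p = 0.00296). Sqstm1, the autophagy receptor p62, went from 248, 229, 198 and 281 to 349, 340, 358 and 358, a change of 0.56 with no overlap. Lamp1, a lysosomal membrane protein gene, was not called (0.27, adjusted p = 0.287), but passed with the block (0.0111) and without Paused replicate 3 (0.0416). The higher count was 3 under loess scaling and 19 with the block. It was 3 without Ctrl replicate 2 or Paused replicate 1, and 14 without Paused replicate 3. Over all 244 intervals in or within 1000 bases of the list's genes, 7.38% were higher and 4.51% lower. For protein-coding genes these shares were 8.86% and 5.34%, so the list did not stand out by this count.

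**Figure D5:**
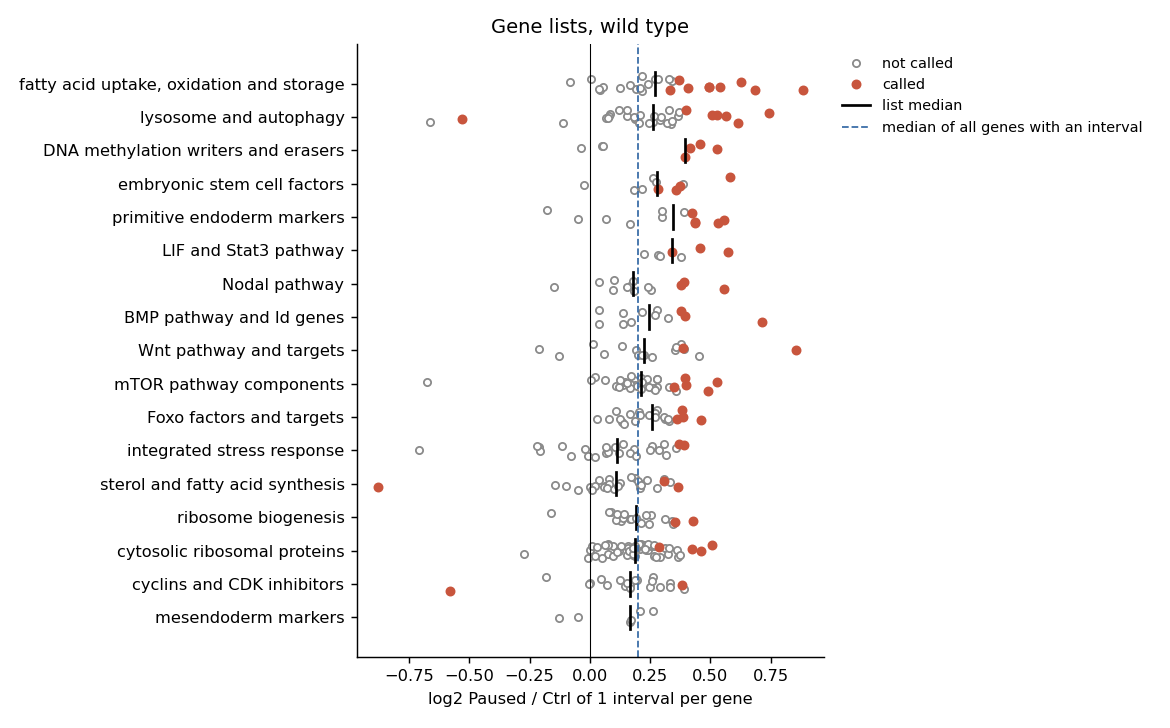
Log2 change of the 1 interval per gene for 17 gene lists in WT; filled points were called, black bars are list medians, and the dashed line is the median of all genes with an interval (0.20). Most list medians lie near the dashed line, and the called genes farthest to the right are Cpt1b, Cdx1, Ctsa and Bmp2.

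Promoter sequence is shown for 4 genes whose interval overlaps the promoter, to show what kind of start rose: Nanog and Esrrb as pluripotency factors, Cpt2 and Ctsa as metabolic genes. Each run is the 250 bases before a RefSeq start (build GRCm38.p6), on the strand of the gene. Capitals mark matches on either strand to the octamer-type motif ATGCAAA (in 4.12% of the 32851 RefSeq promoter windows of this length), the Sox-type motif CATTGT (10.7%) and the GC box GGGCGGGG (16.1%).
Nanog (chr6:122707239-122707488, + strand): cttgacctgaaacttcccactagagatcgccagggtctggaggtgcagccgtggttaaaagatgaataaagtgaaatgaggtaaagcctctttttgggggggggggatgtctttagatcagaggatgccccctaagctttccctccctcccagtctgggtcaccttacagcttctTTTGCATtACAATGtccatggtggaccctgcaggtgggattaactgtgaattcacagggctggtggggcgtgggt
Esrrb (chr12:86421394-86421643, + strand): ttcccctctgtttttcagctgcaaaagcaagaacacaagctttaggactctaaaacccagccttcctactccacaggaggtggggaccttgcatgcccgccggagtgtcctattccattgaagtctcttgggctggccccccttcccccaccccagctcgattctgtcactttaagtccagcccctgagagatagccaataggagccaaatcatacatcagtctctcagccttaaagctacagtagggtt
Cpt2 (chr4:107923590-107923839, - strand): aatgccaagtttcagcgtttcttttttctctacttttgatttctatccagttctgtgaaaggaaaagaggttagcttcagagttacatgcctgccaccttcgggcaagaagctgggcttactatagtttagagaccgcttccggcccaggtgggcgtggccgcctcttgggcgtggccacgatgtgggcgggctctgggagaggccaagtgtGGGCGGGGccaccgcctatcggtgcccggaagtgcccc
Ctsa (chr2:164832622-164832871, + strand): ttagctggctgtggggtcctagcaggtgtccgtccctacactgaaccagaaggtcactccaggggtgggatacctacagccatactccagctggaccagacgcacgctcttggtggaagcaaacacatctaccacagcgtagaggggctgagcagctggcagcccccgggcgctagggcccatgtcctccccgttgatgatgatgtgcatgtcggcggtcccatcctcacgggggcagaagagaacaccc
In the Nanog window the octamer-type and the Sox-type match are parted by 1 base, the form in which Oct4 and Sox2 are known to bind that promoter. The Cpt2 window holds 1 GC box, and the Esrrb and Ctsa windows hold none of the 3 motifs. Over all 10180 genes with a known start and an interval, the GC box was in 35.5% of promoters of higher genes, 33.9% of those not called and 8.54% of the 82 lower ones, counted over the whole RefSeq window, which runs past the start. The extended E-box TCACGTGA, which Tfeb and Tfe3 are known to bind, was in 1.92% of higher and 1.85% of uncalled promoters. The CCAAT motif CCAATC was in 16.5% of higher and 23.7% of uncalled ones. A match is a run of letters and no measured binding.

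Among embryonic stem cell factors 4 of 10 were higher and none lower, with a median of 0.28. At the Nanog start the Ctrl values were 268, 247, 220 and 215 and the Paused values 327, 315, 280 and 294, with no overlap and a change of 0.36 (adjusted p = 0.0283). At an Esrrb start they went from 146, 151, 167 and 183 to 197, 202, 207 and 231, a change of 0.37. Pou5f1, the gene of Oct4, had its matched interval at a downstream RefSeq start and not at its main promoter. It went from 59.8, 48.0, 56.7 and 48.2 to 81.7, 98.6, 55.2 and 89.9, a change of 0.58, with Paused replicate 3 inside the Ctrl range. These calls are near the threshold. Under loess scaling and quantile normalization the call was lost at Nanog (adjusted p = 0.179 and 0.221) and at Esrrb (0.147 and 0.179), where DESeq2 also lost it (0.0656). The call at Nanog was lost without Ctrl replicate 2, 3 or 4 or Paused replicate 1 or 2 (adjusted p from 0.0524 to 0.0871), and that at Esrrb without Ctrl replicate 1 or 2 or Paused replicate 4 (0.0800 to 0.0882). At Pou5f1 it was lost without Ctrl replicate 2 or 4 or Paused replicate 1, 2 or 4 (0.0655 to 0.0932). For the list the higher count was 2 without Ctrl replicate 1, 0 without Ctrl replicate 2, and 1 without Ctrl replicate 4 or Paused replicate 1, 2 or 4. It was 9 with the block, and 1 higher and 1 lower under loess scaling. Over all 80 intervals in or within 1000 bases of the list's genes, 21 were higher and 1 lower (26.2% and 1.25%, against 8.86% and 5.34% for protein-coding genes). Esrrb, whose orphan nuclear receptor sustains naive cells, gave 10 of these, with 10 of its 27 intervals higher, none lower and a largest change of 2.12. Klf4 and Tfcp2l1 had no interval under the gene rule.

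Genes that set and remove DNA methylation had 4 of 7 higher and a median of 0.39. Dnmt3a, a de novo methyltransferase, rose by 0.53 on the log2 scale (adjusted p = 0.0112), from 168, 128, 146 and 146 to 243, 199, 167 and 246, with Paused replicate 3 just below Ctrl replicate 1. The count was 2 without Ctrl replicate 2, Paused replicate 1 or Paused replicate 4, and 1 under loess scaling. Over all 111 intervals in or near these genes, 9 were higher and 9 lower (8.11% each), with a median of -0.07. At Dnmt3a 1 of 20 was higher and 4 lower, and at Tet2, which oxidizes methylated cytosine, none of 20 was higher and 4 were lower. Markers of other cell types were read as well. Primitive endoderm markers had 5 of 12 higher, among them Gata6, its key transcription factor (0.53), and the adaptor gene Dab2 (0.55). That count was 2 without Ctrl replicate 2, 3 without Paused replicate 1 or 4, 8 without Paused replicate 3 and 2 under loess scaling. Over all 120 intervals in or near the primitive endoderm genes 21 were higher and 2 lower (17.5% and 1.67%). For protein-coding genes these shares were 8.86% and 5.34%. Trophoblast markers had 2 of 8 higher, with Hand1 at 0.60 (lost without Ctrl replicate 1, adjusted p = 0.0700). Over all 68 intervals in or near the trophoblast genes 11 were higher and 3 lower (16.2% and 4.41%). Fibroblast markers had 2 of 7, Thy1 (0.64) and Col1a1 (0.62). Over all 53 intervals in or near the fibroblast genes 8 were higher and 2 lower (15.1% and 3.77%). The only interval of Col1a2, which had none under the gene rule, was lower (-1.32), as was 1 of 5 at Acta2. Under the gene rule none of 6 mesendoderm markers and 2 markers of 2-cell-like cells was called. Over all 21 intervals in or near the mesendoderm genes 3 were higher (14.3%) and 0 lower, among them the only interval of Mesp1 (0.55). Of the 4 intervals in or near the 2-cell-like genes 1 was lower and 0 higher. Summed over its 12 genes, the primitive endoderm list had centred values of 1675 to 2090 in Ctrl and 2061 to 2729 in Paused. The trophoblast list had 1135 to 1437 and 1305 to 1781, the fibroblast list 923 to 1193 and 1138 to 1584, the mesendoderm list 600 to 792 and 603 to 894, and the 2-cell-like list 260 to 313 and 246 to 331. The ranges overlap in all 5, median changes ran from -0.09 to 0.34, and the part of other cell types in the result was not tested. In bulk samples, fewer cells with an open site and less opening per cell cannot be told apart.

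The genes of the mTOR pathway itself stayed near the background, with 5 of 33 higher (15.2%), none lower and a median of 0.21. Rps6kb2, a kinase of ribosomal protein S6, changed by 0.52 and Mlst8, a subunit of both mTOR complexes, by 0.49. The higher count was 2 without Ctrl replicate 2, Paused replicate 1 or Paused replicate 4, 3 without Ctrl replicate 3, 2 under loess scaling and 19 with the block. Of the key genes on this side, Ddit4 and Sesn3, which restrain mTORC1, Irs2 and Insr, which carry insulin signals, and the Foxo targets Ccng2 and Txnip were not called, with changes from 0.03 to 0.33. With the replicate block Insr (adjusted p = 5.82e-05), Irs2 (0.00241), Sesn3 (0.000345) and Txnip (0.000624) passed, while Ddit4 (0.0724) and Ccng2 (0.759) did not. Insr, Sesn3 and Txnip also passed with all 24 libraries in the fit (0.0141, 0.0149 and 0.0393) and with the authors' scaling alone (0.0179, 0.0115 and 0.0345), and Insr passed without Ctrl replicate 4 (0.0369). Genes of ribosome biogenesis (2 of 21 higher) and cytosolic ribosomal proteins (4 of 54 higher) had no lower member and medians of 0.19 each, but under loess scaling 1 and 3 were lower. Rps27, a ribosomal protein gene, rose by 0.46 on the log2 scale (adjusted p = 0.0056). The integrated stress response, which raises amino acid genes through Atf4, had 2 of 26 higher and a median of 0.11. Under the gene rule it had no call at Asns (-0.02), Trib3 (0.19) or Ddit4 (0.14). The other of the 2 intervals in or within 1000 bases of Ddit4 was called lower (-0.97). Sterol and fatty acid synthesis genes had 2 of 28 higher and 1 lower, with a median of 0.11. The lower gene was Stard4, a sterol carrier (-0.88), at a weak interval of 31.0, 49.8, 31.8 and 18.4 in Ctrl and 19.4, 16.4, 17.0 and 13.2 in Paused. Its call was lost without Ctrl replicate 1, 2 or 3 or Paused replicate 2 or 4 (adjusted p from 0.0537 to 0.125). Under loess scaling the medians of the stress response and of the synthesis list became -0.06 each, with 4 and 5 members lower. In glucose uptake and glycolysis 2 of 17 were higher, with Pdk1, which restrains the use of pyruvate in mitochondria, at 0.61. Slc2a1, a glucose transporter, was not called (0.21) except with the block (adjusted p = 0.00469) and with the authors' scaling alone (0.0433).

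Myc, a driver of growth, had 1 of the few lower calls, at an interval just outside the gene. The Ctrl values were 21.4, 18.7, 35.2 and 29.9 and the Paused values 13.2, 13.3, 17.0 and 14.5, with no overlap and a log2 change of -0.78 (SE 0.244, adjusted p = 0.0387). The call was lost without Ctrl replicate 3 or 4 or Paused replicate 1, 2 or 4 (0.0598 to 0.137). It was also lost with DESeq2 (0.099), with all 24 libraries in the fit (0.0895), with the authors' scaling alone (0.058), under loess scaling (0.0553) and under quantile normalization (0.0572). In the knockouts the same interval changed by 0.21 and -0.16 and was not called. Over the 13 intervals within 50 kb that have Myc as their nearest protein-coding gene, 2 were lower and none higher. The Myc network, which includes Myc itself as its lower member, had 2 of 8 higher and a median of 0.19 (-0.02 under loess scaling), with Mlxipl, a glucose-sensing relative of Mlx, at 0.45 (lost under quantile normalization, adjusted p = 0.0597). Of 21 cyclins and their inhibitors 1 was higher and 1 lower. The lower was Ccnd2, cyclin D2, from 347, 329, 323 and 312 to 275, 209, 175 and 227, a change of -0.58 (SE 0.121) with no overlap. Dusp1, a phosphatase of immediate early type, changed by 0.57 among 3 of 11 higher in its list, while Dusp6, a target of ERK signalling, was at 0.02.

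Smad2, deleted in the other lines, passes signals of Nodal and activin. In the Nodal pathway 3 of 13 genes were higher, none lower, with a median of 0.18. The activin receptor gene Acvr1b changed by 0.56 (lost without Ctrl replicate 2 or 3 or Paused replicate 1 or 4, adjusted p from 0.0734 to 0.0994), and the inhibitory Smad7 by 0.38 (lost without the same libraries, 0.0519 to 0.0666). That count was 0 without Ctrl replicate 2 or 3 or Paused replicate 1 or 4. The feedback targets Lefty1 (0.24) and Lefty2 (0.15) were not called. Nor was any of the 8 intervals within 50 kb whose nearest protein-coding gene is Lefty1 or Lefty2. Nodal had no interval under the gene rule. At Lefty2 the Ctrl values were 103, 108, 98.6 and 96.3 and the Paused values 117, 125, 98.4 and 112, which overlap. In the BMP list 3 of 12 were higher, led by the ligand gene Bmp2 (0.71), in the Wnt list 2 of 17, led by the target gene Cdx1 (0.85, adjusted p = 6.15e-05), and in the LIF and Stat3 list 3 of 7. Under loess scaling these counts were 1, 1 and 0, the Wnt list had 1 lower, and the Nodal list had 1 higher and 1 lower. At Smad7 the call was lost under loess scaling (0.0802) and quantile normalization (0.054). Otx2, a factor of primed cells, was not called (0.35, adjusted p = 0.117), but passed with the block (0.0108), with the authors' scaling alone (0.0412) and without Paused replicate 3 (0.0169). In the list of formative and primed genes 4 of 12 were higher, and 2 higher and 1 lower under loess scaling. Over all 80 intervals in or near these genes 7 were higher and 9 lower (8.75% and 11.2%). For the lists given without such values, the higher counts ran from 0 to 8 over the left-out libraries. They were lowest mainly without Ctrl replicate 2 or 3 or Paused replicate 1 or 4 and highest without Paused replicate 3.

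Most intervals called in WT moved in the same direction in the knockouts. Of the 29337 intervals called in WT, 28331 had the same sign in both knockouts and 168 the opposite sign in both. Across all tested intervals the log2 changes of WT correlated with those of Smad2_KO1 at r = 0.732 and of Smad2_KO2 at r = 0.722. These points share tables, normalization and interval placement, and genomic intervals are not independent replicates, so no p is given. Over the called intervals the knockout change was a median of 0.77 of the WT change, where WT values chose the intervals. In a limma fit over all 24 libraries the WT change differed from the mean knockout change at 3 intervals (0.00151%). The count at an unadjusted p under 0.05 was 15645. None of the 3 intervals lies at a gene start. The nearest genes were Stt3b, Hes1 and Ywhaz. Near Hes1 the WT values rose from 25.6, 17.8, 28.4 and 13.8 to 64.3, 57.5, 43.2 and 59.5, while the knockout means were 46.0 and 46.5 in Smad2_KO1 and 39.7 and 40.5 in Smad2_KO2, Ctrl before Paused. The count was 0 without Ctrl replicate 4, Paused replicate 1 or Paused replicate 4, 1 without Paused replicate 2, 8 without Ctrl replicate 1, 13 without Paused replicate 3 and 21 with the replicate block.

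The share of signal in the most open sites was higher on average in Paused, but the difference did not pass the test. The highest decile of intervals by level held 43.4 ± 1.53% of matched signal in Ctrl and 46.1 ± 2.12% in Paused (SD, n = 4 each; exact permutation test, two-sided, p = 0.114, adjusted 0.229 over 2 tests). Gene-start intervals held 19.6 ± 1.31% and 21.2 ± 1.75% (exact permutation p = 0.229). The smallest p that 70 splits allow is 0.0286. For the top decile, leaving out Paused replicate 3 gave that value, with a difference of 3.44 percentage points. Paired by replicate number, the shares rose in all 4 pairs, and the smallest p that 4 pairs allow is 0.125.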

How the data were processed

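ATAC-seq libraries of mouse E14 cells were read from 2 tables deposited by the authors, 1 for Ctrl and 1 for Paused. Per the submitters' processing notes, FastQC, Trim Galore, Bowtie2 2.4.1, MACS3 3.0.3 and DiffBind 3.16.0 were used with build mm10, in roles the notes do not give. The values the authors deposited are normalised signal, and their steps show that each library's read counts were divided by a factor of its own. At least 99.96% of the values in each WT column came out as whole reads, and same-group libraries differed by more than sampling noise (chi-square per degree of freedom 1.236 to 2.142 over 12 pairs). No column was without a sample.

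Intervals were matched at 50% overlap, libraries centred on their median log2 ratio, and log2(value + 1) tested with limma 3.58.1 (trend, two-sided, R 4.3.3) and Benjamini-Hochberg adjustment over intervals reaching 10 in 4 of 8 libraries. Tables were prepared with Python 3.11.15 and pandas 2.3.3. On simulated reads the fit recovered 14.9% of 1.5-fold, 65.7% of 2-fold and 100% of 4-fold changes, with 4 false calls over 198508 intervals. An uncalled interval may thus hold a change of 1.5-fold. The simulation had 1 common dispersion and no replicate or table effect, so it does not measure errors from those. Genes, tRNA genes and promoters come from RefSeq (GRCm38.p6). Per-library values are centred values, and coordinates are those of the Ctrl table (mm10). Same-numbered WT libraries deviated together (r = 0.189, 0.248, 0.189 and 0.26 for replicates 1 to 4). The highest r of these Ctrl libraries with a Paused library of another number was 0.096, 0.118, 0.066 and 0.073. The mean of -0.074 between other numbers is set by subtracting the group means and is no separate evidence. The labels' replicate numbers were used as pairs for the block. Whether equal numbers share a culture or day is not given in the sources used here. edgeR 4.0.16 and DESeq2 1.42.0 on the recovered reads, other scalings, filters, overlaps and left-out libraries were alternatives.

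Members and gene lists were chosen with earlier results of these data known. Named genes are the key genes, up to 3 called genes per list with the largest change, and the 8 risen and 8 fallen intervals with the largest change. Genes and tRNA genes named beyond that rule, or preferred because they kept their call, were chosen after their values were seen. Some named genes are not reported here.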

Additional observations from a re-analysis of the deposited data

Results flagged for a closer look

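At 3 intervals the response to INK128 in WT differed from the mean response of the 2 knockouts, by the limma test of that difference over all 24 libraries. The interval nearest Stt3b, an oligosaccharyltransferase gene, had a difference of 1.546 on the log2 scale (adjusted p = 0.0396). Its mean went from 15.5 to 36.6 in WT, from 40.5 to 30.8 in Smad2_KO1 and from 34.95 to 29.3 in Smad2_KO2. The interval nearest Hes1, a Notch target gene, had a difference of 1.364 (adjusted p = 0.0402). The interval nearest Ywhaz, a 14-3-3 gene, had a difference of -1.654 (adjusted p = 0.0402), with means of 30.6 and 15.2 in WT, 13.9 and 25.8 in Smad2_KO1 and 20.1 and 28.2 in Smad2_KO2, Ctrl before Paused. At all 3 the WT Ctrl mean lay apart from both knockout Ctrl means, and the nearest genes are 30087, 109075 and 80340 bases away in the order Stt3b, Hes1, Ywhaz.

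Single libraries stood apart from the other 3 of their group at 3 of the 152 groups tested, where chance flags about 1 in 20. At Dusp6, Ctrl replicate 3 (551) lay below the other Ctrl libraries (592 to 597), with a gap of 0.889 of the range. At the Lrrtm4 interval Ctrl replicate 4 (111) lay above the others (80.9 to 85.0; gap 0.862). At the Eda2r interval Ctrl replicate 4 (61.9) lay below the others (86.2 to 88.0; gap 0.931).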

How the results depend on the processing

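No called value of a named interval changed sign under any alternative tried. Of 43 called tRNA intervals 34 kept their call in every setting other than the 2-fold threshold, as did all 16 largest changes and 18 of 55 called gene intervals. The 29337 calls (16365 higher, 12972 lower) became 18498 (10812, 7686) with DESeq2, which gave no adjusted p at 34638 intervals, 17506 (12094, 5412) at a mean of at least 50, 1194 (752, 442) with identical bounds, 5997 (2827, 3170) at 2-fold, 46366 (25917, 20449) with all 24 libraries in the fit and 53252 (30117, 23135) with the replicate block. The authors' scaling alone gave 26012 higher. Genes called, 2334, became 5105 with the authors' scaling, 141 with identical bounds, 57 at 2-fold, 4691 with all 24 libraries and 7192 with the replicate block. tRNA intervals lower, 41, became 1 of 1 with identical bounds, 17 at 2-fold 20 of 48 at 90% overlap and 29 of 63 at 80% overlap, and ran from 34 to 47 in the other settings. The WT and knockout responses differed at 0 intervals with identical bounds, 0 against Smad2_KO1 or Smad2_KO2 alone and 21 with the replicate block. Leaving out 1 library at a time gave 20071 to 28935 calls, 10691 to 16505 higher, 9010 to 12430 lower, 1139 to 3614 genes, 35 to 39 tRNA intervals lower and 0 to 13 differences between lines. It gave differences of 2.031 to 3.44 percentage points for the top level decile (exact permutation p from 0.0286 to 0.2286) and 1.037 to 2.175 for gene starts. Signs turned only at uncalled genes: Asns (0.071 with the authors' scaling; -0.133 to 0.064 over left-out libraries, above 0 without Ctrl replicate 4, 0.064, or Paused replicate 2, 0.053, or 3, 0.061), Ccng2 (-0.013 with library totals, -0.171 with loess, -0.132 with quantile normalization, -0.034 to 0.087 over left-out libraries, below 0 without Paused replicate 1), Ddit4 (-0.067 with loess, -0.021 with quantile normalization) and Dusp6 (0 with TMM, -0.027 with totals, -0.197 with loess, -0.128 with quantile normalization, -0.029 to 0.086 over left-out libraries, below 0 without Ctrl replicate 3 or Paused replicate 1 or 4). The cause was not tested. Quantile normalization, 90% overlap and the tRNA alternatives were chosen after seeing the data. edgeR was not run for the difference between lines, since whole reads were not recovered for 4 knockout columns. In the lowest decile by level 3.87% of intervals were called against 22.9% in the highest, and the part of depth in this was not tested.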
